A study of Mus musculus with 4 samples.

Results

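Cells in which several replication-dependent histone genes were detected, but few genes of the following cell cycle phases, were described here among Lineage-, Sca-1+, cKit+ (LSK) cells of mouse bone marrow. A cell was included when at least 4 of 7 histone genes (Hist1h3c, Hist1h2ab, Hist1h1b, Hist1h3b, Hist1h2ap, Hist1h2ae and Hist1h2bb) and fewer than 3 of 7 G2/M genes (Ube2c, Cenpf, Ccnb1, Aspm, Cdkn3, Hmmr and Ccnb2) had a unique molecular identifier (UMI), a count of 1 captured RNA molecule. The rule took 901 of 25236 cells that carried a single hashtag. At homeostasis it took 523 of 16207 cells, and after 5-fluorouracil (5-FU) it took 378 of 9029. They are called histone-positive cells here, because the levels given below did not bear out the name histone-high after 5-FU. The 14 genes of the rule chose the cells, so their levels and differences are given as a description only and nothing rests on them.

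The LSK fraction, which holds hematopoietic stem cells and multipotent progenitors, was sorted from C57BL/6 mice. The study's methods name male mice for homeostasis and the same workflow for 5-FU, and they give no age for these mice. Wild-type cells came from Sin3B F/F mice, and knockout cells from Sin3B F/F;Vav1-iCre+ mice, in which the Vav1 promoter drives Cre recombinase throughout the blood system from before birth. All mice therefore carried the floxed allele. Mice were either untreated (homeostasis) or received a single intraperitoneal dose of 100 mg/kg 5-FU, an antimetabolite that kills dividing cells, 9 days before harvest. In each condition cells of 2 mice per genotype were pooled, stained with 1 hashtag antibody per genotype and loaded together, so that each genotype in each condition is 1 pool. The labels name both genotypes for each library, and only the study's methods say which hashtag marked which. With 1 pool per group no test of genotype was possible: intervals below are exact 95% intervals of the counts, they cover counting error only, and differences between mice are not in them. Condition and library coincide and cannot be told apart.

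In S phase the genome is copied, and each cell must make a new set of nucleosomes for the new DNA. The canonical histone genes, which lie in clusters and mostly lack introns, are transcribed for this purpose mainly during S phase. Their mRNAs end in a conserved stem-loop that is bound by the protein Slbp, in place of a poly(A) tail, and they decay when replication ends. Stem cells of the marrow are largely quiescent, whereas multipotent progenitors enter the cycle more often. 5-FU removes cycling progenitors, after which the remaining cells are drawn into division.

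The 7 histone genes of the rule all lie on chromosome 13 (GRCm38, GENCODE M21) and each has 1 exon. Hist1h1b (21779883 to 21780625) and Hist1h2ap (21833026 to 21833507) are on the minus strand, as are Hist1h2ae (23570517 to 23571220) and Hist1h3c (23744973 to 23745602). Hist1h2bb (23746734 to 23747241), Hist1h2ab (23751126 to 23751598) and Hist1h3b (23752267 to 23752886) are on the plus strand. The stem-loop is shown because the libraries were made from poly(A)-primed RNA, a selection that mRNAs ending there would not be expected to pass. It was searched on the sense strand of annotated transcripts as GG, any 3 bases, TT, any base, T, any base, AG, any 3 bases and C. Capitals mark the 16 bases of the match, with up to 5 bases on either side:
Hist1h2ap: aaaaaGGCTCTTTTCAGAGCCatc
Hist1h2ab: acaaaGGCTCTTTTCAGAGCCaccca
Hist1h2ae: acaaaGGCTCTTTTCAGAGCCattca
Hist1h3b: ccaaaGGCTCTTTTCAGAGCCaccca
Hist1h3c: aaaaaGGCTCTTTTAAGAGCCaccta
Hist1h2bb: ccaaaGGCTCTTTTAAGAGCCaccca
Hist1h4d: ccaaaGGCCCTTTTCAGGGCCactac
The last of these, Hist1h4d, was not in the rule and carries a different stem. In the annotated transcripts of Hist1h2ap, Hist1h2ab and Hist1h2bb the match ended 3, 11 and 23 bases before the transcript end. In Hist1h3b, Hist1h3c and Hist1h2ae it ended 51, 74 and 151 bases before the end, and in Hist1h4d 770 bases. No match lay in the annotated transcript of Hist1h1b. Within the last 200 bases, the match was present in 6 of the 7 rule histones and in 27 of 67 canonical histone genes. Anywhere in a transcript it was present in 46 of the 67. Counted by transcript, 215 of 58797 protein-coding transcripts (0.366%) had it in the last 200 bases. These counts depend on the annotated transcript ends and on the window. The UMIs of the histone genes count only the molecules that poly(dT) priming captured. Copies of near-identical sequence can share reads, so single histone genes are uncertain.

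The libraries held 195052914 gene UMIs in 23931 cells at homeostasis and 141497146 in 12753 cells after 5-FU. Wild-type singlets numbered 11579 in the homeostasis library and 5302 in the 5-FU library, and knockout singlets 4628 and 3727. The libraries shared 76 cell barcodes. Barcodes with both tags were left out, no doublet caller was run, and doublets within a genotype remain. Histone-positive cells were deeper than cells that held neither set of genes, with median UMIs of 11326, 11517, 18991 and 20567 against 6441, 6283.5, 8590.5 and 9507.5. They expressed Kit at 292.9, 269.1, 161.0 and 141.3 CPM (each gene's UMIs scaled to a fixed pool total, UMIs per 1000000) and Ly6a, which encodes Sca-1, at 46.5, 47.0, 86.5 and 121.6 CPM. Groups of 4 values are always given in the order homeostasis wild type, homeostasis knockout, 5-FU wild type, 5-FU knockout.

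The summed level of the 7 rule histones in histone-positive cells was 6820, 9632, 2340 and 2040 CPM. In cells with neither set it was 327.2, 276.2, 246.2 and 246.0 CPM. The rule fixes that order. Cells that met the histone rule and also had 3 or more G2/M genes, and so were left out, held more still: 9224, 12875, 12043 and 10008 CPM. Against the sum of all other singlets (2098, 1943, 2339 and 3379 CPM), histone-positive cells were higher at homeostasis, level in wild-type cells after 5-FU and lower in knockout cells after 5-FU. The rule asks how many histone genes were detected, not how strongly, and the cells left out for their G2/M genes outnumbered those kept by 2445 to 901.

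The label S phase was set beside replication genes, which the rule did not use but which share the phase of its histones, so this too describes the cells and is no test. The published S phase list, 43 genes of replication and its preparation, summed to 4773, 5862, 5530 and 5450 CPM in histone-positive cells. The same list stood at 3283, 3724, 4590 and 5011 CPM in cells with both sets of genes, and at 2057, 1766, 2081 and 2279 CPM in cells with neither. Histone-positive cells were thus the highest class for the S phase list in all 4 pools, while cells with both sets were the highest for histones and for mitotic genes outside the rule.

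**Figure D1:**
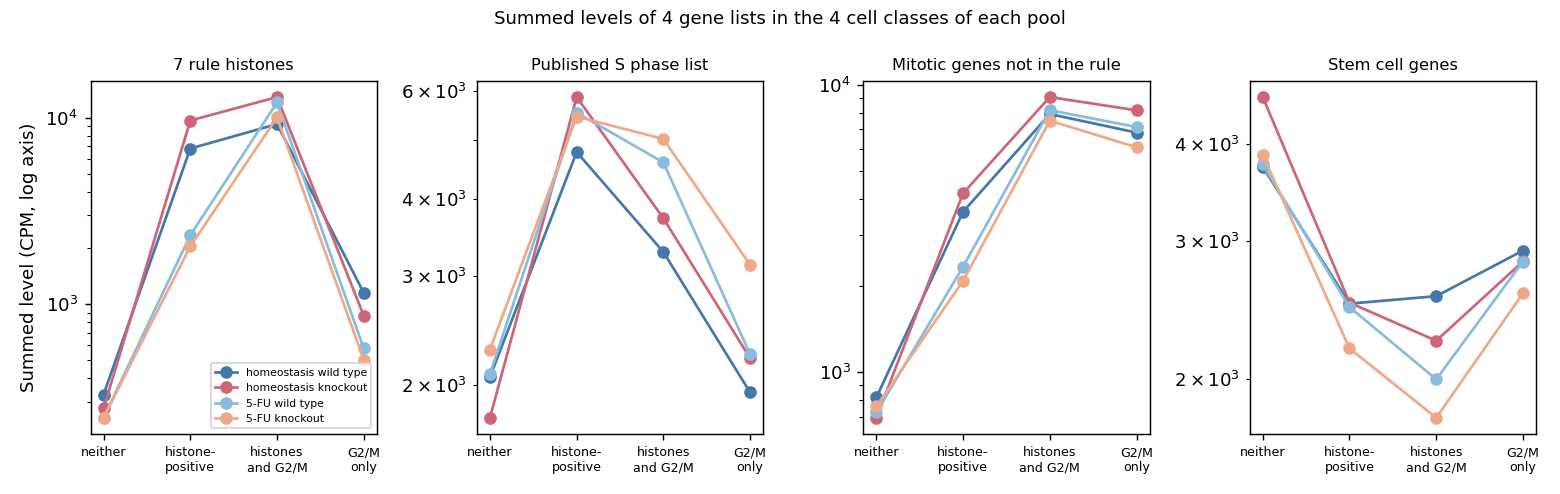
Summed levels of 4 gene lists (CPM, log axes that differ between panels) in the 4 cell classes of each pool; each point is 1 pool and lines join the classes. Histone-positive cells are highest for the S phase list (4773 to 5862 CPM), whereas histones and mitotic genes are highest in cells that also hold G2/M genes.

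Gene by gene, all 42 genes of the S phase list with at least 50 UMIs in the histone-positive cells of each pool were higher there than in the other singlets of the pool, in all 4 pools. Their median log2 ratios were 1.08, 1.58, 1.21 and 0.78, while the medians over all 4870 genes with that depth were between -0.05 and 0.03. Since the cells were chosen by genes of the same phase, this describes them and is no test. Of 4862 genes outside the rule, 13 were at least 2-fold higher in all 4 pools (0.267%) and 0 were at least 2-fold lower. E2f1, which encodes the transcription factor that switches on S phase genes, had the highest ratio of these in its lowest pool: it stood at 42.3, 43.6, 52.98 and 54.26 CPM against 15.5, 13.8, 16.2 and 20.9 CPM in other singlets, or log2 ratios of 1.45, 1.67, 1.71 and 1.38. Ccne2, which encodes cyclin E2, the partner of Cdk2 at the start of S phase, was at 48.7, 54.0, 28.4 and 24.3 CPM against 12.0, 8.32, 9.37 and 11.1 CPM. Its log2 ratios of 2.02, 2.70, 1.61 and 1.14 were larger at homeostasis than after 5-FU in both genotypes.

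Several of the 13 have known roles at the fork or before it. Cdt1, which loads the Mcm helicase at origins, was at 65.8, 83.7, 79.6 and 85.5 CPM in histone-positive cells, log2 ratios of 1.24, 1.80, 1.42 and 1.02 over other singlets. Mcm10 and Cdc45, which act when the helicase is switched on, had log2 ratios of 1.52, 2.31, 1.91 and 1.11 and of 1.32, 2.24, 1.55 and 1.07. Lig1, the ligase that joins Okazaki fragments, was at 203.1, 213.7, 180.7 and 180.1 CPM against 74.6, 56.1, 62.5 and 87.7 CPM. Uhrf1, which carries DNA methylation over to the new strand, had 1.63, 1.97, 1.82 and 1.28, and the replication checkpoint kinase gene Chek1 had 1.09, 1.69, 1.72 and 1.23. Exo1 and Rmi2, of DNA repair, and the cell cycle factor genes Tcf19 and Zfp367 were also among the 13, Zfp367 being outside the 12 genes the rule for naming gives. In each of these the smallest ratio over the 4 pools was at least 1.01.

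By lists, the replisome (polymerases, clamp and its loaders) was higher in all 4 pools for 28 of 28 genes, with median log2 ratios of 1.01, 1.41, 0.99 and 0.59. For comparison with this list and those below, 1480 of all 4870 genes compared were higher in all 4 pools and 1540 were lower in all 4. Pcna, the sliding clamp, stood at 339.9, 403.3, 362.1 and 368.0 CPM against 140.9, 121.2, 168.5 and 205.1 CPM in other singlets. Of the origin licensing genes, 13 of 17 were higher in all 4 pools, with medians of 0.81, 1.27, 1.17 and 0.82, and the others were Orc3, Orc4, Orc5 and Dbf4, whose ratios were of mixed sign. Gmnn, which encodes the inhibitor that keeps origins from firing again, was at 120.6, 156.3, 158.2 and 147.6 CPM against 47.9, 42.4, 56.9 and 83.9 CPM.

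Of the nucleotide synthesis genes, 16 of 18 were higher in all 4 pools (medians 0.79, 1.17, 0.82 and 0.55), and Samhd1, which breaks down deoxynucleotides, was lower in all 4, at log2 ratios of -0.67, -0.86, -0.75 and -0.50. Dut, which removes dUTP, stood at 373.3, 442.7, 440.1 and 442.9 CPM. Fork checkpoint and repair genes were higher in 18 of 19 cases, with medians of 1.05, 1.69, 1.26 and 0.76. Hells, a chromatin remodeller of replicating cells, was at 198.1, 226.2, 199.1 and 180.7 CPM against 87.99, 65.4, 69.7 and 91.0 CPM. Ratios in 5-FU knockout cells were the lowest of the 4 for the S phase, replisome, nucleotide and repair lists; cells with both sets of genes, which are among the other singlets, were 14.1% of all singlets in that pool, the largest share of the 4, and the part of this in the ratios was not tested.

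**Figure D2:**
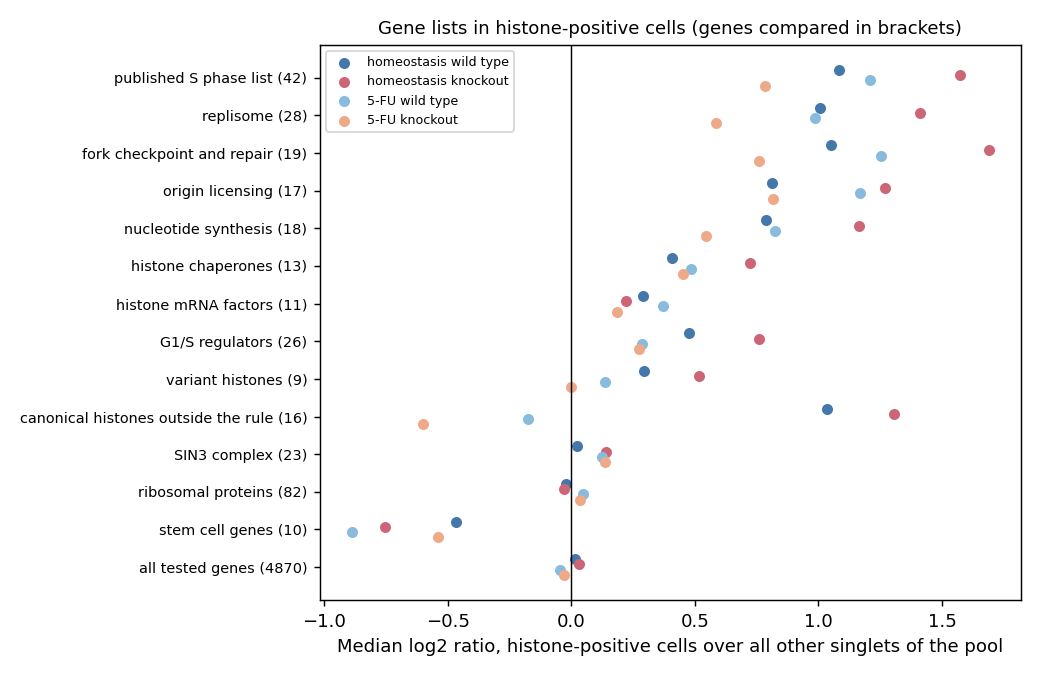
Median log2 ratio of histone-positive cells over all other singlets of the same pool for each gene list (number of genes compared in brackets); each point is 1 pool. Replication lists lie above 0 in all 4 pools, stem cell genes below 0, and canonical histones outside the rule above 0 at homeostasis but below 0 after 5-FU. Other singlets include cells with both sets of genes, which hold the most canonical histones.

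By list medians, genes that serve histones themselves were higher by less than the replication lists, though Slbp at homeostasis was near the replisome medians. Slbp, which binds the stem-loop shown above, stood at 168.9, 220.0, 178.7 and 197.9 CPM against 84.0, 84.7, 107.7 and 128.8 CPM, log2 ratios of 1.01, 1.38, 0.73 and 0.62. Over the histone mRNA factors, 7 of 11 genes were higher in all 4 pools, with medians of 0.29, 0.22, 0.37 and 0.19. Of all 4870 genes compared, 1480 were higher in all 4. Over the histone chaperones, 10 of 13 were higher in all 4, with medians of 0.41, 0.72, 0.49 and 0.45. Nasp, which carries H3 and H4 before assembly, was at 175.0, 176.4, 242.6 and 218.9 CPM against 90.5, 70.4, 109.3 and 139.1 CPM. Variant histones, whose mRNAs are mostly polyadenylated, had medians of 0.29, 0.52, 0.14 and -0.0022.

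Stem cell genes were lower. Of 10 such genes with enough UMIs, 9 were lower in all 4 pools, and the medians were -0.47, -0.75, -0.89 and -0.54. Of all 4870 genes compared, 1540 were lower in all 4. Hlf, a transcription factor gene of stem cells, stood at 390.8, 311.3, 213.3 and 202.8 CPM against 600.2, 622.0, 486.8 and 403.5 CPM, and Pdzk1ip1 at 37.1, 54.7, 42.0 and 58.5 CPM against 57.9, 99.7, 83.1 and 96.3 CPM. The remaining gene, Ifitm1, had log2 ratios of -0.44, -0.76, 0.18 and -0.16. Among all genes, the lowest by the ratio nearest 0 were Wfdc17 (-0.82, -0.93, -1.77 and -0.92), the chemokine gene Ccl4 (-0.82, -0.80, -1.999 and -0.78), Gimap6 (-0.76, -1.01, -1.16 and -0.83), Tmem71 and Mettl7a1, and G2e3 was among the 12 lowest. Hlf and Pdzk1ip1 were also among those 12, with Gm19590, Pcmtd2, Itsn1 and Sesn3.

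Canonical histones outside the rule were compared next. Of 60 such genes, 16 had at least 50 UMIs in the histone-positive cells of each pool. In all 4 pools 2 of the 16 were higher than in other singlets, as were 1480 of all 4870 genes compared. The medians of the 16 were 1.03 and 1.30 at homeostasis but -0.17 and -0.60 after 5-FU. The other singlets include cells with both sets. Over the 60 genes, histone-positive cells summed to 1656, 1879, 1157 and 1000 CPM. Cells with neither set were lower in all 4 pools, at 434.3, 396.8, 568.4 and 539.9 CPM. Cells with both sets were higher in all 4, at 2290, 2909.5, 4347 and 3565 CPM. Hist1h4a, an H4 gene, was 1 of the 2 above other singlets in all 4 pools. It stood at 32.9, 36.7, 11.9 and 15.5 CPM against 6.19, 5.38, 8.92 and 10.9 CPM in other singlets. The other was the H2B gene Hist1h2bc, at 50.4, 47.7, 87.4 and 77.3 CPM against 48.4, 43.5, 63.2 and 72.8 CPM. Hist1h4d stood at 117.7, 132.1, 119.0 and 104.3 CPM against 61.5, 57.1, 153.1 and 170.7 CPM, above other singlets at homeostasis and below them after 5-FU in both genotypes. The linker histone gene Hist1h1a stood at 99.8 CPM in histone-positive wild-type cells at homeostasis, near the 101.0 CPM of cells with both sets, but after 5-FU at 91.7 CPM against 325.1 CPM.

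The number of rule histones detected varied among the histone-positive cells. After 5-FU, 143 of 225 cells (63.6%) in the wild-type pool and 105 of 153 (68.6%) in the knockout pool sat at exactly 4 histones, against 177 of 407 (43.5%) and 41 of 116 (35.3%) in the homeostasis library. The 5-FU cells at 4 histones held 744.8 and 629.4 CPM of the rule histones, while the 21 wild-type and 14 knockout cells with all 7 held 13641 and 12410 CPM. At homeostasis the cells at 4 histones held 2124 and 1962 CPM and those with all 7 held 12617 and 17105 CPM. The S phase list differed far less over the same steps, from 5191 to 6536 CPM in wild-type and from 4844 to 7400 CPM in knockout cells after 5-FU.

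Per cell, the median of the rule histones was 38.99, 77.5, 7.92 and 6.39 UMIs per 10000 UMIs of the cell, and single cells of the 5-FU wild type ranged from 1.73 to 371.1. The S phase list had per-cell medians of 43.9, 60.2, 57.4 and 55.5 on the same scale. Cells just outside the histone threshold, with 3 histones and fewer than 3 G2/M genes, held 895.8, 712.8, 524.7 and 450.2 CPM of the rule histones and 2989, 2993, 3422 and 3922 CPM of the S phase list. Cells just inside it held 3599, 5240, 5191 and 4844 CPM of that list, higher in every pool.

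Detection was compared with barcodes that hold no cell and at equal depth. Barcodes of the homeostasis library with 1 to 100 UMIs, which hold no cell, had Hist1h2ap at 1061 CPM and Hist1h2ae at 202.7 CPM, above the 218.6 and 87.0 CPM of wild-type cells with neither set of genes. After thinning each cell to 4000 UMIs, Hist1h2ap was still detected in 44.2% of those wild-type cells (58.8% before) and in 93.9% of histone-positive ones (99.8% before), whereas Hist1h3b was at 0.333% (0.568% before) and 16.5% (38.1% before). In the wild-type pool after 5-FU, thinned cells held Hist1h2ap in 33.2% of those with neither set and in 72.5% of histone-positive ones (99.1% before). There Hist1h3b was at 0.234% and 7.80% (28% before). The part of RNA from barcodes without a cell in the choice of cells was not tested.

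Singlets thinned to 4000 UMIs and with fewer than 3 G2/M genes after thinning were also grouped by the number of rule histones detected. Of those with 4 or more histones, 63.4% at homeostasis and 82.3% after 5-FU held 3 or more G2/M genes at full depth. The S phase list differed by less from 0 to 2 histones than from 2 to 4. In wild-type cells at homeostasis it was 1812, 1864 and 1927 CPM at 0, 1 and 2 histones, 2889 at 3, 4211 at 4 and 4978 at 5. Knockout cells at homeostasis went from 1785 CPM at 2 to 3648 at 3 and 5156 at 4. After 5-FU, wild-type cells held 2435 CPM at 2, 3824 at 3 and 5137 at 4, and knockout cells 2416, 3857 and 6006. Stem cell genes went the other way, from 3961 to 2470 CPM between 0 and 4 histones in wild-type cells at homeostasis and from 4639 to 1821 CPM in knockout cells after 5-FU.

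**Figure D3:**
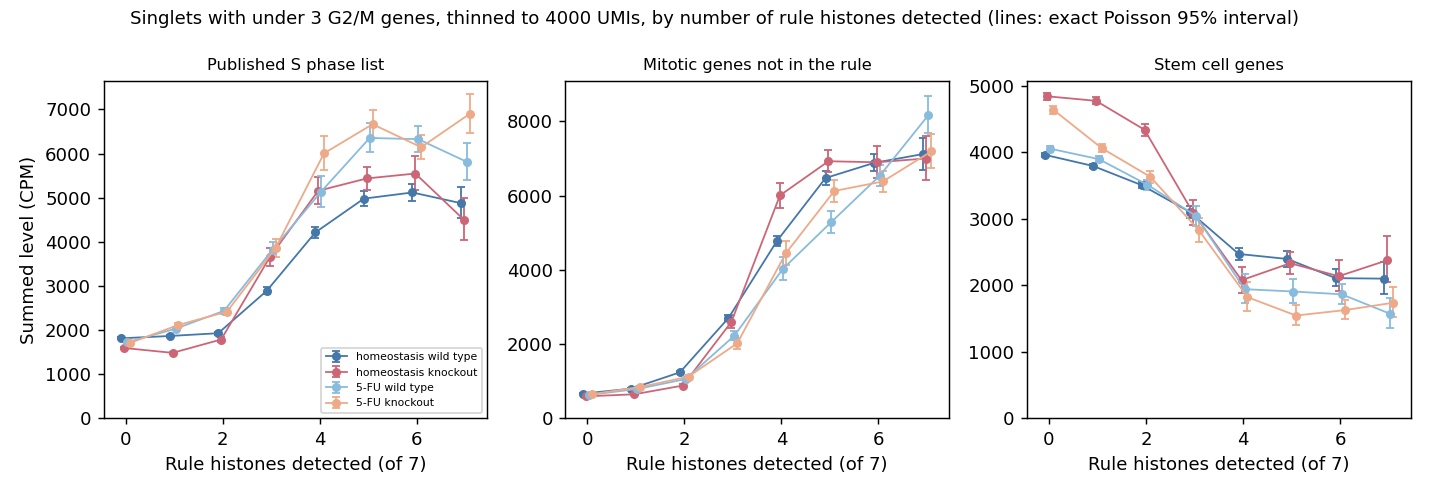
Summed level (CPM) of the S phase list, mitotic genes outside the rule and stem cell genes, by how many of the 7 rule histones were detected. Singlets were thinned to 4000 UMIs and had fewer than 3 G2/M genes after thinning. At full depth, most of those with 4 or more histones held 3 or more G2/M genes. Points are pools, lines are exact Poisson 95% intervals. The S phase list and mitotic genes step up from 2 to 4 histones in all 4 pools while stem cell genes step down.

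The G2/M threshold cut through a gradient. Among wild-type singlets with 4 rule histones, 50.6% at homeostasis and 26.7% after 5-FU held 3 or more G2/M genes, and with all 7 histones 87.8% and 92.7% did. In knockout cells these shares were 30.5% and 33.96% at 4 histones, and 85.7% and 96.3% at 7. Mitotic genes outside the rule were already higher in histone-positive cells than in cells with neither set: 3615, 4193, 2328 and 2081 CPM against 817.3, 694.3, 724.4 and 759.8 CPM. Top2a, which untangles copied DNA, was at 473.5, 556.1, 288.3 and 215.5 CPM, and Mki67, the gene of the proliferation marker Ki-67, at 318.3, 363.8, 261.4 and 194.9 CPM. In cells with both sets Top2a was at 838.5, 955.0, 863.7 and 751.9 CPM.

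The share of histone-positive cells was the first comparison of genotypes. At homeostasis it was 3.51% of wild-type singlets (407 of 11579, Clopper-Pearson 95% interval 3.19 to 3.87%) and 2.51% of knockout singlets (116 of 4628, 2.08 to 3.00%). The difference, knockout minus wild type, was -1.01 percentage points (Newcombe interval -1.55 to -0.422). After 5-FU it was 4.24% (225 of 5302, 3.72 to 4.82%) and 4.11% (153 of 3727, 3.49 to 4.79%), a difference of -0.139 points (-0.964 to 0.716). Thinned to 4000 UMIs, the shares were 5.66% and 4.40% at homeostasis (difference -1.25, -1.99 to -0.473) and 4.45% and 6.43% after 5-FU (1.98, 0.983 to 3.01). The 5-FU interval included 0 at full depth and lay above 0 after thinning. Knockout singlets of that library had a median of 11259 UMIs against 9297.5, and the part of depth was not tested.

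Thinning also changed which cells were chosen. Of the 796 homeostasis cells that met the rule after thinning, 291 met it at full depth and 505 (63.4%) had 3 or more G2/M genes at full depth. After 5-FU, 76 of 429 met it at full depth and 353 (82.3%) did not, through their G2/M genes. In the other direction, 291 of the 501 histone-positive cells deep enough for thinning (58.1%) still met the rule at homeostasis. After 5-FU only 76 of 367 (20.7%) did, so most histone-positive cells of that library were not chosen at equal depth. Cells too shallow for thinning were 7.21%, 7.78%, 12.3% and 7.41% of the pools.

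Without the G2/M threshold, cells with 4 or more histones were 13.9% of wild-type and 9.03% of knockout singlets at homeostasis, a difference of -4.91 points (-5.93 to -3.85). After 5-FU they were 12.0% and 18.2%, a difference of 6.20 points (4.69 to 7.72). Thinned, the differences were -2.72 (-3.68 to -1.71) and 4.603 points (3.25 to 5.98). By this count such cells were fewer in the knockout pool at homeostasis and more frequent in it after 5-FU, at full depth and thinned. With singlets defined instead by a tag share of 80% or more, 6973 wild-type and 1026 knockout cells entered at homeostasis, and the difference in histone-positive cells was -0.079 points (-1.08 to 1.23).

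**Figure D4:**
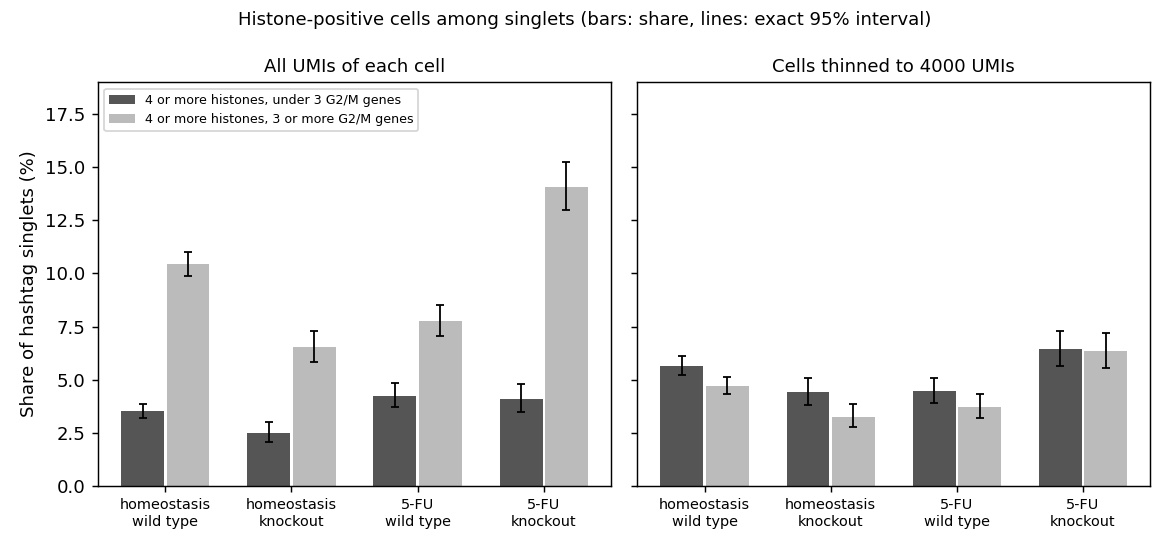
Share of hashtag singlets (%) with 4 or more of 7 rule histones, with fewer than 3 (dark) or 3 or more (light) G2/M genes, in the 4 pools, at full depth (left) and thinned to 4000 UMIs (right); lines are exact 95% intervals. The light bars are the taller in all 4 pools at full depth, and thinning brings both kinds to between 3.26 and 6.43%.

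Sin3b itself was lower in the histone-positive cells tagged as knockout in both libraries. At homeostasis it was at 65.0 CPM in wild-type cells (312 UMIs in 210 of 407 cells) and 15.2 CPM in knockout cells (22 UMIs in 22 of 116), a log2 ratio of -2.06 (-2.79 to -1.47). After 5-FU it was at 106.6 CPM (465 UMIs) and 11.8 CPM (39 UMIs), a log2 ratio of -3.16 (-3.68 to -2.70). Other singlets gave -1.79 and -2.93.

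The rule histones were higher in knockout than in wild-type histone-positive cells at homeostasis, 7 of 7, with a log2 ratio of their sums of 0.50 (0.47 to 0.53), and lower after 5-FU, 7 of 7, at -0.20 (-0.24 to -0.15). As the cells were chosen on these genes, this is a description. Canonical histones outside the rule had a median of 0.16 at homeostasis (26 of 29 above 0) and -0.20 after 5-FU (5 of 27 above 0), where the medians over all genes tested were -0.010 and -0.0017. In other singlets the signs were the reverse, -0.14 and 0.33, but these mix the other classes. In wild-type and knockout cells with both sets, these genes summed to 2290 and 2909.5 CPM at homeostasis and to 4347 and 3565 CPM after 5-FU. In cells with neither they summed to 434.3 and 396.8 CPM and to 568.4 and 539.9 CPM. Cells with both sets were 10.4% and 6.53% of singlets at homeostasis, and 7.75% and 14.1% after 5-FU. The part of these shares was not tested. In histone-positive cells Hist1h3f, an H3 gene, stood at 74.6 and 105.1 CPM at homeostasis (log2 ratio 0.50, 0.21 to 0.77). There Hist1h4h, an H4 gene, was at 53.2 and 34.6 CPM after 5-FU (-0.62, -0.96 to -0.29). The H2B gene Hist2h2bb was the one canonical histone outside the rule to pass 2-fold, after 5-FU, with 61 and 16 UMIs (-1.496, -2.42 to -0.72); it had no UMI in either pool at homeostasis. With the tag share of 80% or more the medians became -0.20 and 0.052, and with 3 histones in place of 4 the homeostasis median became -0.056.

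Replication genes were also higher in knockout histone-positive cells at homeostasis. Of the S phase list, 41 of 43 genes were higher in knockout histone-positive cells, with a median log2 ratio of 0.32. The replisome was at 0.31 (27 of 32) and origin licensing at 0.24 (16 of 18), where 4725 of all 9755 genes tested were above 0. The gap varied with the rule histones detected. The S phase list was at 3599 and 5240 CPM at 4 histones, 4528 and 6190 at 5, 5682 and 6485 at 6, and 5935 and 5960 at 7. Cells at 4 histones were 43.5% and 35.3% of the pools, with median UMIs of 8747 and 12246. The part of this mix and of depth was not tested. In other singlets the S phase list had medians of -0.16 at homeostasis and 0.35 after 5-FU, the replisome -0.080 and 0.33, and origin licensing -0.17 and 0.37. These singlets mix classes whose shares differ between genotypes. In cells with both sets the S phase list was at 3283 and 3724 CPM at homeostasis and at 4590 and 5011 CPM after 5-FU. In cells with neither it was at 2057 and 1766 CPM and at 2081 and 2279 CPM. The knockout rise at homeostasis was thus also seen in cells with both sets. The part of the shares was not tested. In histone-positive cells at homeostasis Mcm6, a helicase subunit, stood at 203.7 and 282.2 CPM (log2 ratio 0.47, 0.30 to 0.64). Atad2, a chromatin ATPase, was at 241.2 and 327.2 CPM (0.44, 0.28 to 0.60). After 5-FU the S phase list was at -0.05, with 17 of 43 above 0, and Mcm6 at 285.1 and 292.8 CPM. Mitotic genes outside the rule were at 0.24 and -0.11, and Top2a at 0.23 (0.11 to 0.35) and -0.42 (-0.55 to -0.29).

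Over all genes, 55 were at least 2-fold higher and 132 at least 2-fold lower in knockout histone-positive cells at homeostasis, or 0.564% and 1.35% of 9755 genes with at least 50 UMIs over both genotypes. After 5-FU, 42 (0.447%) and 45 (0.479%) of 9402 were. None of the tested genes of the S phase (43), licensing (18), replisome (32), nucleotide (23) and fork (23) lists, which overlap, was among them in either library. At the shares of all genes just given, few calls would be expected in lists of this size. Of 8881 genes tested in both libraries, 5 were at least 2-fold higher in both (0.0563%) and 6 at least 2-fold lower in both (0.0676%), and in all 11 the counting intervals left out 0 in both. Another 2 (0.0225%) were 2-fold apart in opposite directions, Zbtb16, a zinc finger transcription factor gene, and Elane (neutrophil elastase). Elane was at 0.92 (0.50 to 1.32) at homeostasis without its richest cell in each pool, below 2-fold, and after 5-FU 13 of its 16 knockout UMIs came from 1 cell. Zbtb16 stood at 35.0 and 78.9 CPM at homeostasis (1.17, 0.82 to 1.52) and at 8.94 and 4.24 CPM after 5-FU (-1.04, -2.07 to -0.16).

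The 5 higher genes were Pf4 (platelet factor 4), Vwf (von Willebrand factor), Cavin2 (a protein of membrane caveolae), Smim1 (a small membrane protein of red cells) and Mt1 (metallothionein 1, which binds zinc). Of the megakaryocyte and erythroid list, 1 of 9 genes tested in both libraries was 2-fold higher in both, against 5 of all 8881 genes (0.0563%). It was Pf4, which is already among the 5, so the count restates that call. Pf4 stood at 72.9 and 408.8 CPM at homeostasis and at 128.2 and 454.7 CPM after 5-FU, log2 ratios of 2.49 (2.29 to 2.68) and 1.83 (1.69 to 1.97). At homeostasis 368 of the 591 knockout UMIs of Pf4 came from 1 of 116 cells, and without the cell richest in it in each pool the ratio was 1.37 (1.11 to 1.62), and 2.20 (2.03 to 2.37) after 5-FU. With the 2% of cells at either end of the quality measures left out, the homeostasis ratio of Pf4 was -0.11, that of Vwf 0.29 and that of Cavin2 0.18. With a tag share of 80% or more, which left 32 knockout cells, they were 4.17, 4.01 and 1.96. After 5-FU, with the rule applied to cells thinned to 4000 UMIs, Pf4 was at 0.58, Vwf at 0.46 and Cavin2 at 0.72, all below 2-fold, and with 5 histones Vwf was at 0.31. Vwf had ratios of 1.63 (0.84 to 2.42) and 1.55 (1.10 to 2.04), and 14 of its 28 knockout UMIs at homeostasis came from 1 cell, without which the ratio was 0.95 (-0.13 to 1.93). Cavin2 had 1.10 and 1.62, and 0.60 (-0.19 to 1.32) at homeostasis without such cells.

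Smim1 stood at 5.62 and 17.3 CPM at homeostasis and at 6.42 and 16.4 CPM after 5-FU, log2 ratios of 1.62 and 1.34. These were below 2-fold on thinned cells (0.53 and 0.59) and whatever the G2/M genes (0.88 and 0.81). Mt1 stood at 36.5 and 95.5 CPM at homeostasis and at 76.6 and 171.9 CPM after 5-FU, log2 ratios of 1.39 (1.06 to 1.72) and 1.17 (0.97 to 1.37). In other singlets the Mt1 ratios were 2.11 and 2.33, larger than in histone-positive cells in both libraries. With 5 histones the 5-FU ratio of Mt1 was 0.75.

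Of the 6 lower genes, Slc16a11 (a monocarboxylate transporter of the Slc16 family) was at 24.8 and 3.46 CPM at homeostasis (119 and 5 UMIs) and at 15.4 and 1.21 CPM after 5-FU (67 and 4 UMIs), log2 ratios of -2.71 and -3.50. Auts2, a gene of Polycomb-associated transcription, was at 280.0 and 107.2 CPM at homeostasis (1344 and 155 UMIs) and at 15.6 and 3.33 CPM after 5-FU. Sin3b was the third. The zinc finger genes Zfp462 (-1.26 and -1.47) and Zbed5 (-1.84 and -1.07), and the lipase gene Pnpla6 (-1.03 and -1.05), rested on 4 to 23 knockout UMIs each. Their calls were lost under some alternatives: Zfp462 was at -0.45 at homeostasis with the tag share of 80%, and with 3 histones Zbed5 was at -0.55 after 5-FU and Pnpla6 at -0.28 at homeostasis. Sin3b, Slc16a11 and Auts2 were more than 2-fold lower under every alternative run, at -1.72, -1.78 and -1.199 or below. In other singlets Zfp462, Zbed5 and Pnpla6 were at -0.05 and -0.62, -0.20 and -0.78, and -0.07 and -0.37. The genes were chosen by their ratios in histone-positive cells, and the part of that choice in the contrast was not tested.

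**Figure D5:**
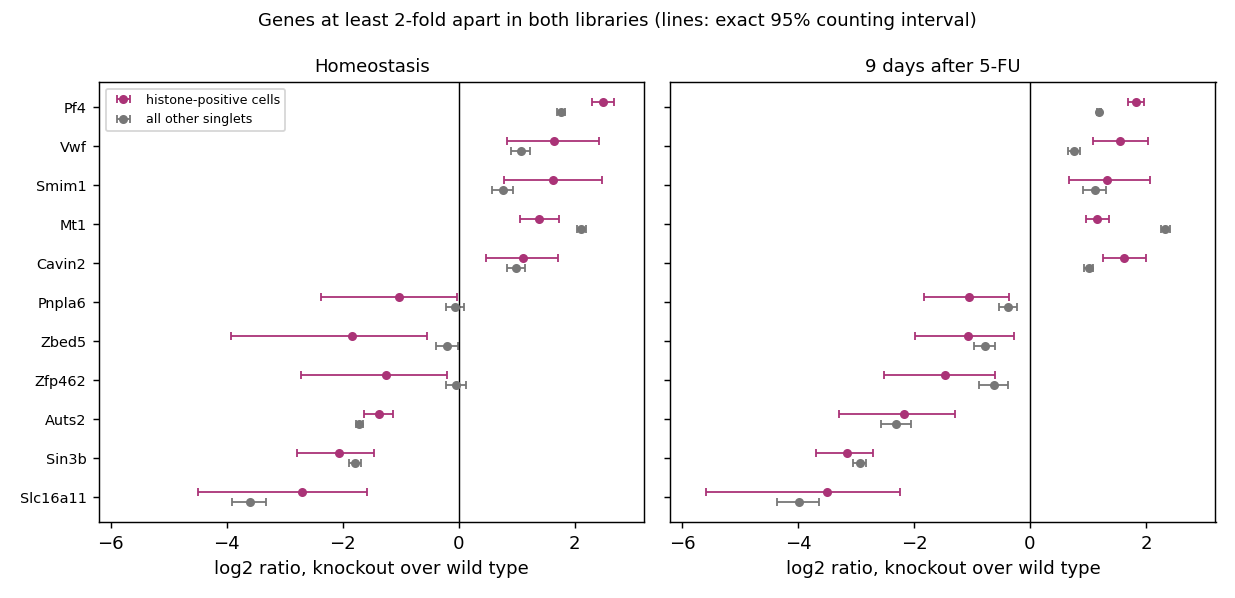
Log2 ratio of knockout over wild type for the 11 genes at least 2-fold apart in the same direction in both libraries, in histone-positive cells (purple) and all other singlets (grey); points are ratios of pools, lines exact 95% counting intervals. Sin3b, Slc16a11 and Auts2 are lower in both kinds of cells, whereas Zfp462, Zbed5 and Pnpla6 lie nearer 0 in other singlets. The genes were chosen by their ratios in histone-positive cells, and the part of that choice in the contrast was not tested.

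Some genes differed between genotypes by another amount in histone-positive cells than in other singlets, in the same direction in both libraries. Dntt, the terminal transferase gene of lymphoid-primed progenitors, stood at 128.7 and 101.7 CPM at homeostasis and 40.8 and 37.0 CPM after 5-FU in histone-positive cells, log2 ratios of -0.34 (-0.61 to -0.08) and -0.14 (-0.49 to 0.20). In other singlets the ratios were -1.34 and -1.41. Without the cell richest in Dntt in each pool, histone-positive cells had -0.50 and -0.37, and after 5-FU 33 of the 122 knockout UMIs came from 1 cell. Clec10a, a lectin receptor gene, had ratios of -1.11 and -0.88 against -2.71 and -1.78. At homeostasis it rested on 6 knockout UMIs, and its interval (-2.73 to 0.02) overlapped that of other singlets (-3.12 to -2.34). Cnnm4, a magnesium transporter gene, had 1.02 and 0.64 against -0.22 and -0.09. After 5-FU its intervals overlapped (-0.14 to 1.44 against -0.28 to 0.11), and those of H2afy2, given next, overlapped in both libraries. H2afy2, which encodes the histone variant macroH2A2, had -0.52 and -0.01 against 0.25 and 0.76, and Rasgef1b, Tmem63a, Wdr24 and Psma8 also had lower ratios in histone-positive cells, by 0.70 to 1.45. These were the genes with the largest such differences and they have no replicate check.

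Lineage genes in histone-positive cells were compared between genotypes next. The neutrophil and monocyte genes summed to 1194 and 1449 CPM at homeostasis (log2 ratio 0.28, 0.21 to 0.35) and to 1198 and 746.9 CPM after 5-FU (-0.68, -0.75 to -0.61). At homeostasis 3 of 11 genes were at least 2-fold higher in knockout cells, against 0.564% of all genes tested. Of these, Elane (0.92) and Ms4a3 (0.93) fell below 2-fold without the cell richest in them in each pool. After 5-FU 3 of 9 were at least 2-fold lower, against 0.479% of all genes tested. The homeostasis ratios depended on few cells. Without the cell richest in the gene in each pool, Mpo went from 0.08 to -0.27, Prtn3 (proteinase 3) from 0.24 to -0.02 and Ctsg from -0.16 to -0.90. Ms4a3, a gene of granulocyte and monocyte progenitors, went from 1.32 to 0.93 (0.32 to 1.51). The richest knockout cell gave 130 of 444 Mpo, 103 of 218 Ctsg and 184 of 769 Prtn3 UMIs. In wild-type cells it gave 122 of 1392, 88 of 809 and 172 of 2166. The homeostasis sum was not redone without such cells, so its direction is uncertain. After 5-FU the same step left Mpo at -1.86 and Ctsg at -1.505. Mpo, myeloperoxidase, stood at 192.4 and 67.9 CPM after 5-FU (-1.5003, -1.72 to -1.29), in 81 of 225 and 30 of 153 cells, and Ctsg, cathepsin G, at 209.4 and 84.9 CPM. Elane was higher in knockout cells at homeostasis (84.6 and 234.5 CPM) and lower after 5-FU (19.7 and 4.85 CPM), but 264 of 406 wild-type and 259 of 339 knockout UMIs at homeostasis came from 1 cell in each pool. Megakaryocyte and erythroid genes summed to 801.3 and 1182 CPM and to 1019 and 1595 CPM, log2 ratios of 0.56 (0.48 to 0.64) and 0.65 (0.59 to 0.70). Pf4 alone made up 72.9 and 408.8 CPM of the homeostasis sums, and most of its knockout UMIs came from the 1 cell given above. After 5-FU it made up 128.2 and 454.7 CPM of the sums. Itga2b, integrin alpha IIb, stood at 49.2 and 61.6 CPM and at 73.4 and 91.6 CPM.

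Markers of mature blood cells, which the sort should remove, were looked at in the same cells. Their sum was 293.5, 1608, 456.1 and 407.4 CPM, and 2, 4, 6 and 5 of the 15 markers had no UMI. Cd3e and Cd8a, of T cells, were at 0 UMIs in all 4 pools. Of 1912 UMIs of S100a8, S100a9, Hba-a1 and Hbb-bs in knockout cells at homeostasis, 1902 came from 3 of 116 cells, and without these the 15 markers summed to 277.0 CPM. Without all cells of 10 or more such UMIs, 40 genes were at least 2-fold higher and 130 lower at homeostasis, while no such cell was among those of the 5-FU library.

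Immediate early genes and interferon genes differed in opposite directions between the libraries, a contrast that was not tested. Immediate early genes summed to 334.3 and 274.6 CPM at homeostasis (log2 ratio -0.28, -0.45 to -0.12) and to 1152 and 1410 CPM after 5-FU (0.29, 0.23 to 0.35), where 13 of 13 genes were above 0. In other singlets the medians of these genes were -0.37 and -0.60, against -0.31 and 0.25 in histone-positive cells. Fos, a gene of the AP-1 factor, stood at 23.5 and 13.1 CPM at homeostasis and at 106.9 and 182.5 CPM after 5-FU, ratios of -0.81 (-1.63 to -0.13) and 0.77 (0.60 to 0.95). Interferon genes summed to 486.4 and 399.8 CPM (-0.28, -0.42 to -0.15) and to 484.1 and 609.6 CPM (0.33, 0.24 to 0.42). Their medians were -0.08 and 0.27, against 0.0070 and -0.11 in other singlets. The sums in other singlets were 606.0 and 536.6 CPM at homeostasis and 714.4 and 745.5 CPM after 5-FU. By sums, other singlets thus differed in the same directions as histone-positive cells. Bst2, tetherin, was at 83.3 and 40.8 CPM at homeostasis and at 59.6 and 64.9 CPM after 5-FU. Stem cell genes had medians of 0.06 and 0.10 between genotypes, while their sum after 5-FU was lower in knockout cells (-0.18, -0.22 to -0.13). The SIN3 complex without its targeted gene stayed within 2-fold for all genes tested, and ribosomal protein genes had medians of -0.0067 and -0.00035.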

How the data were processed

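LSK cells were profiled with 10x Genomics 3′ single-cell RNA sequencing and hashtag antibodies in 1 library per condition. The deposited files hold UMI counts per gene and barcode that the authors made with Cell Ranger 4 (homeostasis) and cellranger-6.0.1 (5-FU), per the file headers. The submitters' notes also name Cell Ranger, Seurat, DESeq2 and mm9. All barcodes were deposited for homeostasis, and those with at least 2921 gene UMIs were used. Its feature names were taken from the 5-FU list, checked by the row order. Every sample column was mapped, with 0 left out. Positions and transcripts came from GENCODE M21 (GRCm38), which is not the build named in the notes and was used for names, positions and stem-loops only.

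Hashtags were assigned with HTODemux (Seurat 5.3.0, R 4.3.3, positive quantile 0.99). Pooled UMIs were compared per gene as CPM in Python 3.11.15 (numpy 2.4.6, scipy 1.17.1, statsmodels 0.14.6, pandas 2.3.3, matplotlib 3.10.9), with 0.5 counts added and at least 50 UMIs over both genotypes, or in each pool for histone-positive over other cells. With 1 pool per genotype there was no p-value, and a gene was called at 2-fold or more. Intervals were Clopper-Pearson for shares, Newcombe for differences, conditional binomial for ratios and Poisson for levels. TMM (edgeR 4.0.16) and DESeq2 1.42.0 size factors were used as alternative scalings only. Scripts were tested on simulated data.

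The cells, gene lists and alternatives were chosen with earlier results of these data known. Named genes were the rule genes; canonical histones outside it with at least 50 UMIs; Sin3b; genes 2-fold apart in the same direction in both libraries; the 12 highest and 12 lowest genes of histone-positive over other singlets by their ratio nearest 0; up to 4 abundant genes of each list; and the 10 whose genotype ratio differed most from that in other singlets in the same direction. Genes named beyond these, among them Gmnn, Hells, Nasp, Fos, Bst2 and Zbtb16, were chosen after their values were seen. A gene that this rule names is not reported here.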

Additional observations from a re-analysis of the deposited data

Results flagged for a closer look

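Some results differed in direction between the libraries, and these differences were not tested, since each genotype was 1 pool per condition. Zbtb16 had a log2 ratio of knockout over wild type of 1.17 in histone-positive cells at homeostasis and of -1.04 after 5-FU, and other singlets had 1.65 and -0.69. Elane had 1.47 and -1.99, with -0.26 and 0.60 in other singlets, and at homeostasis most of its UMIs came from 1 cell in each pool, without which its ratio was 0.92. The share of histone-positive cells among singlets thinned to 4000 UMIs was lower in the knockout pool by -1.25 percentage points at homeostasis and higher by 1.98 points after 5-FU.

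Barcodes outside the singlets also met the rule. Of barcodes with both tags, 93 of 1441 (6.45%) did at homeostasis and 34 of 434 (7.83%) after 5-FU. Of barcodes with no tag, 156 of 6283 (2.48%) and 82 of 3290 (2.49%) did. Their median depths were 11433 and 22596 UMIs with both tags and 5918 and 4162.5 UMIs with none.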

How the results depend on the processing

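No paired analysis was possible because the labels carry no replicate numbers and each genotype was 1 pool per condition. The share difference, knockout minus wild type, was -1.01 points at homeostasis; it was -0.079 with a tag share of 80% or more, -0.366 with 5 histones, -4.91 whatever the G2/M genes and -2.72 so thinned. After 5-FU it was -0.139, and turned positive with 3 histones (0.810), whatever the G2/M genes (6.20), thinned (1.98) and with both (4.603). Genes 2-fold apart numbered 187 and 87 in the homeostasis and 5-FU libraries; whatever the G2/M genes they numbered 383 and 208, and with 10 UMIs 924 and 549, where more genes were tested. After 5-FU they numbered 155 with 3 histones and 144 by mean per-cell CPM. With 2 counts added, 61 were higher and 88 lower at homeostasis.

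The median of canonical histones outside the rule (0.16 and -0.20) became -0.20 and 0.052 with the tag share, and at homeostasis -0.056 with 3 histones, 0.35 whatever the G2/M genes, 0.28 thinned and 0.30 with the quality filter. The S phase median over other singlets became, at homeostasis, 1.30 (5 histones), 0.77 (3) and 0.82 (whatever the G2/M genes) in wild-type cells and 1.16 (3) and 1.27 (whatever the G2/M genes) in knockout cells. After 5-FU it became 0.89 (3) in wild-type cells, and 1.03 (5), 0.47 (3), 1.23 (whatever the G2/M genes), 1.11 (thinned) and 0.95 (quality filter) in knockout cells. Pf4 at homeostasis was -0.11 with the quality filter. The causes were not tested. Of the alternative values of the shares, gene counts and list medians, 60 kept their direction and stayed near the reported value (within its interval or, for gene counts, a set factor), 24 moved further and 7 reversed; of those of single named genes, the numbers were 260, 36 and 1. Leaving out lineage-marker cells or the richest cell, and the thinned count whatever the G2/M genes, were chosen after seeing the data. Pools of 116 to 407 cells limit the precision of genes with few UMIs.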
